A study of Mus musculus with 12 samples.

Results

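Genes that TM6 mouse embryonic fibroblasts (MEFs) expressed, and that were at or near 0 in every line derived from them, were collected across the whole genome outside chromosomes X and Y. The rule asked for a level of 1 CPM or more in all 3 TM6 libraries and of 0.1 CPM or less in all 9 libraries of the rho0, PKO-1 and PKO-6 lines, where CPM (counts per megaread) is the count relative to the library total without *Rn45s*, the ribosomal RNA precursor. Of 24453 genes in the data, 39 passed both limits. Chromosome X held 2 of them and 10 had symbols of families left out of the set (such as *Hox*, *Wnt* and *Mmp*, and *Hand2* itself), which left 27 silenced genes. In all, 11507 genes reached 1 CPM in the 3 TM6 libraries. Members were selected on their measured values in all 12 libraries, so that their difference between TM6 and the derived lines is described here with no test.

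TM6 is a C57BL6/J line immortalized with SV40 large T antigen, in which both alleles of *Pnpt1*, the gene of the mitochondrial exoribonuclease PNPase, carry loxP sites with a neo cassette (Pnpt1 neo-flox). The rho0 line was made from TM6 by 3 weeks in 750 ng/mL ditercalinium, a compound that binds DNA and empties cells of mitochondrial DNA (mtDNA), and was grown from a single colony. PKO-1 and PKO-6 are single-cell colonies of TM6 after adenoviral Cre, which removes the floxed part of *Pnpt1*. The paper reports that quantitative PCR found no mtDNA in the PKO clones either. All 4 lines, controls included, were kept in uridine at 50 µg/mL, and each derived line is 1 clone, so its 3 libraries are cultures of that clone and p-values measure the spread between cultures, not between clones. What a line owes to its treatment and what it owes to the single cell it grew from cannot be told apart in this design, and in bulk RNA fewer cells that express a gene cannot be told apart from less RNA per cell.

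Fibroblasts of different body regions keep a positional identity through transcription factors set up in the embryo, among them homeodomain factors of limb, trunk and face mesenchyme. Such developmental genes often have promoters rich in CpG dinucleotides, and they are classic targets of Polycomb repression in cells that do not use them. Once set, a silent or active state of such a gene can be inherited through cell division.

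The libraries held 40957902 to 55902523 counts outside *Rn45s*, so that 1 CPM stood for 41.0 to 55.9 counts and 0.1 CPM for 4.10 to 5.59. A count of 0 in a single library allowed a level of up to 0.0537 to 0.0732 CPM (3 counts), and such limits cover counting error only. *Pnpt1* had 64.5 ± 4.54 CPM in TM6, 112.5 ± 7.34 in rho0, 25.6 ± 1.37 in PKO-1 and 42.2 ± 6.27 in the PKO-6 clone (SD, n = 3), and the count covers the whole gene, not the deleted part alone. *Vim* and *Col1a1*, which MEFs express strongly, were at 2540 to 2626 CPM and 3359 to 4120 CPM in TM6. In the derived libraries they were at 1428 to 2480 CPM and 682.6 to 2108 CPM. *Thy1*, a surface marker of many fibroblasts, was at 0.102 CPM or less in all 12 libraries. The 8 smooth muscle markers summed to 445.9 to 453.3 CPM in TM6 and 64.97 to 103.4 CPM in the derived lines. *Acta2*, the smooth muscle actin of contractile fibroblasts, had at least 234.9 CPM in TM6 and at most 17.5 in the others. *Tagln*, *Cnn1* and *Lmod1* fell too, but not every marker did. *Smtn* had 72.4 to 80.3 CPM in TM6 and 76.2 to 83.8 in PKO-1, with 47.4 to 49.8 in rho0 and 58.5 to 63.8 in PKO-6. *Des* went from at most 0.312 CPM in TM6 to at least 0.832 in the PKO clones. The part of that marker set in the silencing described here was not tested.

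The rule held each of the 27 genes to 0.1 CPM or less in every derived library. A low sum of these genes there follows from the rule and is no separate finding. Together they had 91.2 ± 0.707 CPM in TM6 (SD, n = 3), 0.416 ± 0.148 in rho0, 0.144 ± 0.0323 in PKO-1 and, in PKO-6, 0.272 ± 0.0448, which is 0.456%, 0.158% and 0.299% of the TM6 mean. The counts behind these levels were 54.31 for rho0, 19 for PKO-1 and 40 for PKO-6. The limit of 0.1 CPM, at 4.10 to 5.59 counts, also bounded each single count. No count of a silenced gene in a derived library was above 4, and 178 of the 243 values were 0. All 9 derived libraries were at 0 for 9 genes, among them *Gm20594*, *Tshz2*, *Cadm1*, *Fam189a2*, *Stac*, *Msx1*, LOC102636514 and *Evx2*. In PKO-1, 17 of the 27 genes were at 0 in all 3 libraries, against 14 in PKO-6 and 13 in rho0.

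**Figure D1:**
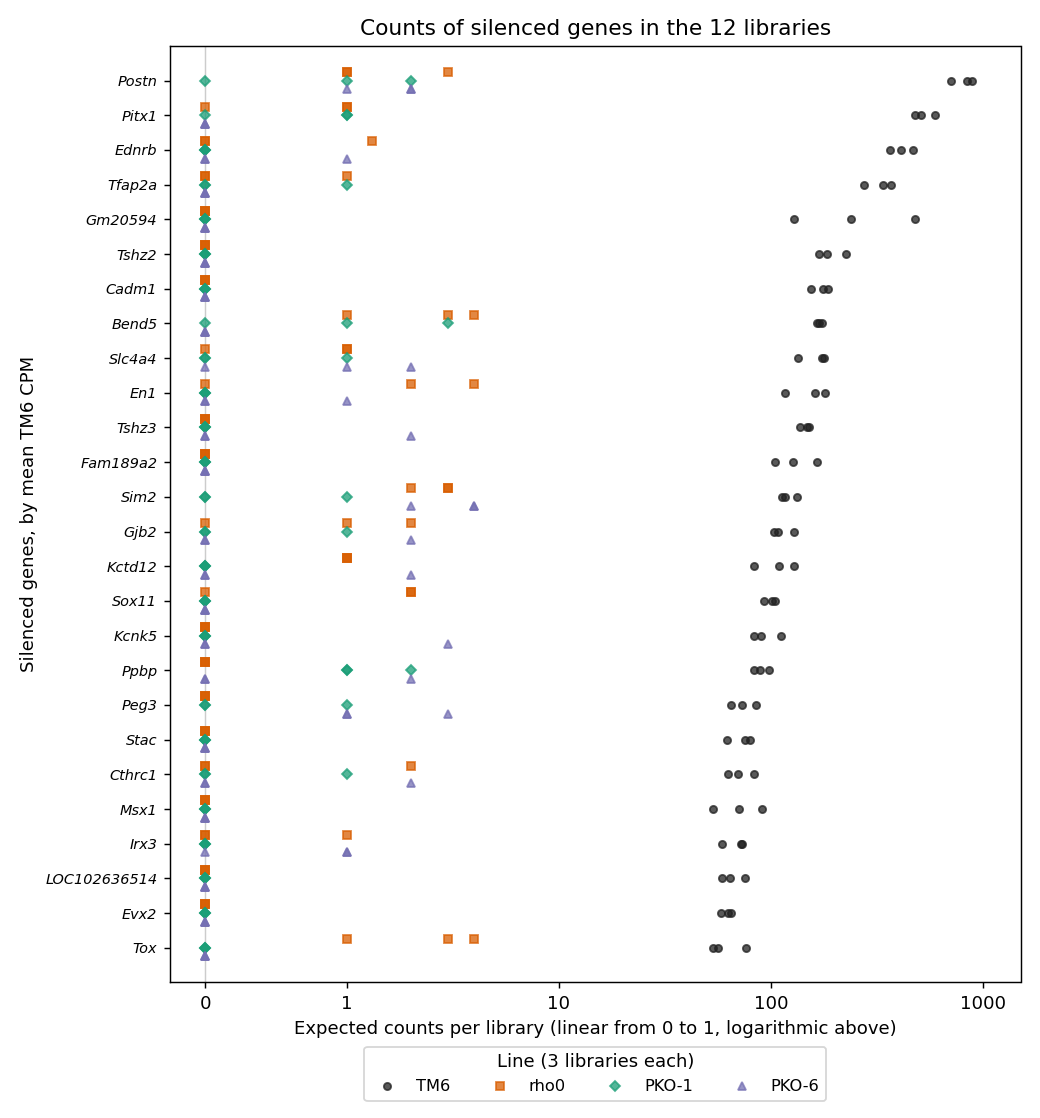
Expected counts of the silenced genes named in the text (rows, by mean TM6 CPM) in the 12 libraries, on an axis that is linear from 0 to 1 and logarithmic above. The TM6 points lie between 53 and 888 counts, and no point of rho0, PKO-1 or PKO-6 lies above 4.

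**Figure D2:**
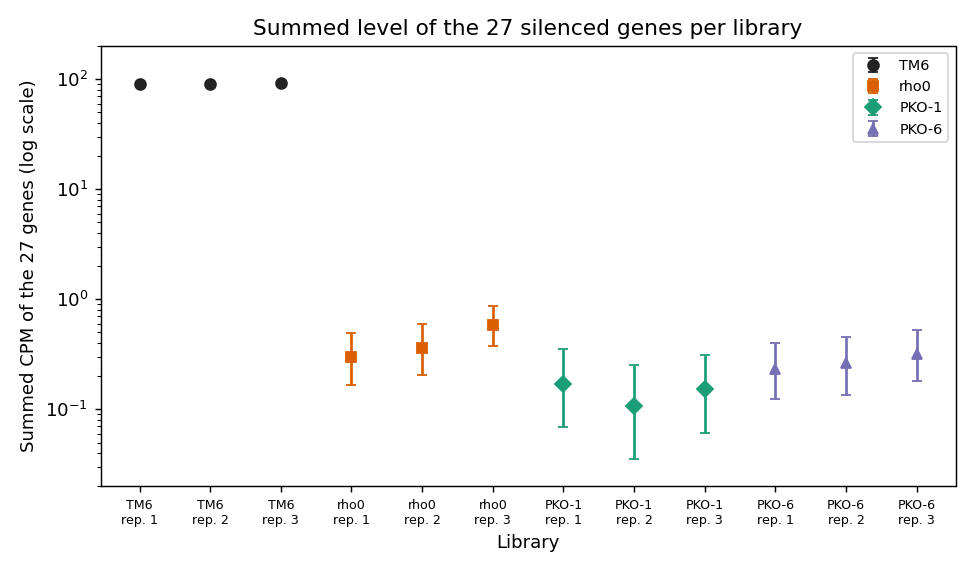
Summed CPM of the 27 genes in each library on a log axis, with exact Poisson 95% intervals of the summed count. The 3 TM6 libraries sit at 90.5 to 91.9 CPM and the 9 derived libraries between 0.108 and 0.583 CPM.

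In TM6 these were low-level genes. Their mean TM6 CPM had a median of 2.18, against 34.96 for the 11507 genes at 1 CPM or more, and all 27 lay under that second value. Between the TM6 libraries they had a median coefficient of variation of 9.26%, against 5.14% for the 11507 genes. Per length, in TPM (transcript abundance per length, scaled to a fixed total), *Gm20594* had the highest level at 55.2 ± 39.8 TPM (SD, n = 3), followed by *Postn* at 7.57 ± 0.425 and *Pitx1* at 6.59 ± 0.278. *Sox11* and *Peg3* closed the order at 0.34 and 0.327 TPM (ranges 0.32 to 0.36 and 0.31 to 0.35), and their libraries overlapped. The spread also overlapped among *Bend5*, *Ppbp* and *Tfap2a*, at 2.87, 2.86 and 2.82 TPM, so that their order is not resolved.

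By known role, 14 of the 27 genes (51.9%) encode DNA-binding proteins, of which 5 are homeodomain factors. The share of such proteins among all genes expressed in TM6 was not computed, so no enrichment can be read from this percentage. It also depends on the families left out by symbol, *Hox* and *Hand2* among them. The homeodomain factors had 2645 counts in TM6 and 9, 2 and 3 in rho0, PKO-1 and PKO-6, and the 9 other DNA-binding proteins had 3768, 29, 7 and 17. The groups of matrix and secreted proteins (3 genes), of receptor, adhesion and junction proteins (3 genes) and of channels, transport and coupling (4 genes) followed, and 3 entries belong to none of these.

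*Pitx1*, which sets hindlimb identity in the embryo, led the homeodomain factors. It had 595, 512 and 477 counts in the TM6 libraries, 1, 0 and 1 in rho0, 1, 0 and 1 in PKO-1, and 0 in all of PKO-6. Against the limit of 3 counts over the PKO-6 libraries it was at least 504-fold lower there, and in rho0 and in PKO-1, with 2 counts each, TM6 was 677 and 678 times higher (95% counting intervals 187 to 5598 and 187 to 5601). *En1*, known for the ventral side of the limb bud and for a lineage of skin fibroblasts, had 179, 161 and 116 counts in TM6. Counts of *En1* remained mostly in rho0, at 2, 0 and 4, while PKO-1 had none and PKO-6 had 1, 0 and 0. The 4 counts in rho0 replicate 3, at 0.0959 CPM, put *En1* just inside the upper limit.

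*Msx1*, a target of BMP signals in limb and craniofacial mesenchyme, had 90.9, 71 and 53.31 counts in TM6 and 0 in the 9 other libraries, at least 68.4-fold lower in PKO-6. *Evx2*, which lies beside the *Hoxd* cluster and is expressed with it in the distal limb, was the member nearest to the TM6 limit. Its counts were 58, 63 and 65 in TM6, the lowest at 1.05 CPM, and 0 in every derived library. *Irx3*, an Iroquois factor of limb bud and neural tube, had 1.31 ± 0.109 CPM in TM6 (SD, n = 3) and 3 counts in the 9 derived libraries.

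The other DNA-binding proteins began with *Tfap2a*, a factor of neural crest, face and surface ectoderm. In the TM6 libraries *Tfap2a* had 365.92, 274 and 336 counts, against 0, 0 and 1 in rho0, 0, 1 and 0 in PKO-1 and none in PKO-6. The teashirt zinc finger proteins *Tshz2* and *Tshz3*, repressors at work in the development of muscle, ureter and other organs, were both members. TM6 held 225, 183 and 169 counts of *Tshz2* and 137, 151 and 148 of *Tshz3*. Neither had a count in rho0 or PKO-1, and the only counts in PKO-6 were 2 for *Tshz3* in 1 library.

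*Bend5*, a BEN-domain repressor that binds DNA, had 168, 165 and 173 counts in TM6, 3, 4 and 1 in rho0, 0, 1 and 3 in PKO-1 and 0 in PKO-6. At 0.0971 CPM in rho0 replicate 2 it was the member nearest to the upper limit. *Sim2*, a bHLH-PAS factor related to fly single-minded, kept the most counts in PKO-6. Its counts were 132, 113 and 117 in TM6, 2, 3 and 3 in rho0, 0, 0 and 1 in PKO-1 and 4, 2 and 4 in PKO-6. With 10 counts in PKO-6 and 8 in rho0, *Sim2* was 34.5 times higher in TM6 than in PKO-6 (95% counting interval 18.6 to 72.6) and 38.7 times higher than in rho0 (19.4 to 90.3), the smallest ratio of any member against PKO-6.

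*Sox11*, a SoxC factor of embryonic mesenchyme and neurons, had 1.92 ± 0.0993 CPM in TM6 (SD, n = 3), 4 counts in rho0 and none in either PKO clone. *Peg3*, a zinc finger gene expressed from the paternal allele, showed the reverse of *Sox11* among the derived lines, with 0 counts in rho0, 1 in PKO-1 and 5 in PKO-6. *Tox*, an HMG-box factor known from T cells, had 76, 56 and 53 counts in TM6 and 3, 1 and 4 in rho0, and both PKO clones were at 0. *Tox* lay near both limits, at 1.08 CPM in its lowest TM6 library and 0.0959 CPM in its highest rho0 library.

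*Postn*, which encodes periostin, a matricellular protein of periosteum, tendon and healing tissue, had the highest count of all members. TM6 held 888, 835 and 706 counts of it, rho0 had 1, 1 and 3, PKO-1 had 1, 2 and 0, and PKO-6 had 2, 2 and 1. Only PKO-1 replicate 3 was at 0, and TM6 was 416 times higher than rho0 (95% counting interval 178 to 1281), 693 times higher than PKO-1 (237 to 3362) and 464 times higher than PKO-6 (198 to 1429). *Cthrc1*, a secreted collagen triple helix repeat protein of remodelling tissue, had 1.40 ± 0.239 CPM in TM6 (SD, n = 3) and 5 counts in the derived libraries. *Ppbp*, the chemokine Cxcl7 that attracts neutrophils, had 83, 98 and 89 counts in TM6, none in rho0, 4 in PKO-1 and 2 in PKO-6.

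*Ednrb*, the endothelin receptor known for melanocyte and enteric neural crest cells, was the member with the third highest CPM. Its TM6 counts of 467, 408 and 364 stood against 0, 0 and 1.31 in rho0, 0 in PKO-1, and 1, 0 and 0 in PKO-6. *Cadm1*, an immunoglobulin adhesion molecule of epithelia and synapses, had 174.98, 186 and 154.97 counts in TM6 and 0 in the 9 others, at least 164-fold lower in PKO-6. *Gjb2*, the gap junction protein connexin 26, had 129, 108 and 103 counts in TM6, 2, 1 and 0 in rho0, 1, 0 and 0 in PKO-1, and 0, 0 and 2 in PKO-6.

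Among genes for ion transport, *Slc4a4*, a sodium bicarbonate cotransporter, had 173, 177 and 134 counts in TM6. Its counts in the derived libraries were 0, 1 and 1 in rho0, 1, 0 and 0 in PKO-1, and 1, 2 and 0 in PKO-6. *Kctd12*, an auxiliary subunit of GABA-B receptors, had 128, 109 and 83 counts in TM6, 1 in each rho0 library, 0 in PKO-1, and 2, 0 and 0 in PKO-6. *Kcnk5*, the background potassium channel TASK-2, had 1.82 ± 0.169 CPM in TM6 (SD, n = 3) and counts in 1 derived library only, with 3 in PKO-6 replicate 2. *Stac*, an adaptor of voltage-gated calcium channels, had 1.40 ± 0.216 CPM in TM6 and no count in the others.

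*Fam189a2*, which encodes a membrane protein, had 164, 127 and 104 counts in TM6 and 0 in every derived library. LOC102636514 is the RefSeq long noncoding RNA Hand2os1, read from the strand opposite to *Hand2*, the hand and heart factor next to it. The gap between both genes was 123 bases, and *Hand2* passed both CPM limits too but was left out by its symbol. LOC102636514 had 1.27 ± 0.109 CPM in TM6 (SD, n = 3) and 0 counts elsewhere, and its short transcript of 553 nt put it at 5.08 ± 0.414 TPM, the fourth among the members.

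*Gm20594* stood apart from the other members in its spread and in its sequence. Its counts in TM6 were 128, 238 and 479, and 0 in all 9 derived libraries. The coefficient of variation in TM6 was 68.5%, and only 0.0348% of the 11507 genes had a larger one, whereas the largest of the other members was 20.4% for *Msx1*. The counted entry is a single exon of 334 nt on chromosome 6 of mm10, 79818031 to 79818364 on the plus strand, and its GENCODE transcript is longer, at 449 nt. With blastn, 37 mtDNA-encoded transcripts of GENCODE M21 were searched against the GENCODE transcripts whose gene symbol occurs in the data. Among the matches that this search returned, *Gm20594* alone was at 80% identity or more over 100 bases. The limits were applied to returned matches only. Weaker matches within these limits may not have been returned, so *Gm20594* is not shown to be the only such gene. Entries under symbols that GENCODE does not use were not searched. *Gm20594* matched *mt-Rnr2*, the 16S ribosomal RNA of mitochondria, with 88.4% identity over 439 aligned positions. Within the counted exon 290 of 320 aligned bases were identical, 65 of them in 1 run. The sequences below are the ungapped 120 bases of both transcripts that differ least, 5′ to 3′, at chr6:79818224-79818343 (GRCm38) for *Gm20594*, with the 4 differing bases in capitals, and they show how alike the nuclear entry and the mitochondrial RNA are.
Gm20594 (bases 309 to 428): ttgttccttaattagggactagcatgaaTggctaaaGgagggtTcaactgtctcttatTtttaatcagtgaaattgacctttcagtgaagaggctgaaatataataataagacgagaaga
mt-Rnr2 (bases 950 to 1069): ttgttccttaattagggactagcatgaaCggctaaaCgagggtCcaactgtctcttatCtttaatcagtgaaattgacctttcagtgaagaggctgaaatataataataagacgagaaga
The data hold no mtDNA-encoded entries. By the paper's account rho0 and the PKO clones, where *Gm20594* had no counts, lack mtDNA, and TM6 has it. Whether reads of *mt-Rnr2* were counted for *Gm20594* was not tested. Without *Gm20594*, the median coefficient of variation of the members in TM6 was 9.15%.

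Genes near the limits show where the set ends. Just inside the TM6 limit lay *Evx2*, *Tox* and *Msx1*, with lowest TM6 values of 1.05, 1.08 and 1.09 CPM. Just outside it were *Chst15*, with 50, 56 and 46 counts in TM6, *Lpar3*, with 47, 46 and 55, and *Pdzrn3*, with 59, 53 and 39, at lowest values of 0.906, 0.852 and 0.797 CPM. *Pdzrn3* had no count in the 9 derived libraries, *Chst15* had 1, 1 and 0 in rho0 and none in the PKO clones, and *Lpar3* had 0, 0 and 1 in rho0, 1, 3 and 1 in PKO-1 and 1, 3 and 4 in PKO-6. At the upper limit, *Bend5*, *En1* and *Tox* were just inside, at 0.0971, 0.0959 and 0.0959 CPM in their highest derived library. Just outside were *Atp8b1*, *Actg2* and *Slc5a7*, at 0.107, 0.122 and 0.146 CPM. *Slc5a7*, the choline transporter of cholinergic neurons, had 874, 936 and 885 counts in TM6, in sum more than any member, and 2, 6 and 4 in rho0, 0 in PKO-1 and 7, 4 and 1 in PKO-6. *Atp8b1* had 91, 80 and 60 counts in TM6, 0 in rho0, 1, 3 and 0 in PKO-1 and 0, 4 and 5 in PKO-6, and *Actg2*, a smooth muscle actin, had 75, 79 and 70 in TM6 and 2 to 5 in every derived library.

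The members were spread over the autosomes, with 4 on chromosome 14 (14.8% of members, against 3.47% of the expressed autosomal genes), 3 each on chromosomes 2 and 5 and none on chromosomes 10, 11, 17 and 18. No pair of members was closer than 500 kb. The nearest pairs were *Kctd12* and *Ednrb*, 832.0 kb apart on chromosome 14, and *Slc4a4* and *Ppbp*, 1528.9 kb apart on chromosome 5. Closer company came from genes that passed both limits but were left out by symbol: *Hand2*, 123 bases from LOC102636514, and *Hoxd13*, 8.8 kb from *Evx2*, with *Hoxd11* and *Hoxd10* beyond it, the latter at 32.3 kb.

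Promoter windows of RefSeq (GRCm38.p6, 250 bases before and 50 after a start site) were matched for 21 of the 27 genes, 24 windows in all. Those without one included *Pitx1*, *Cadm1*, *Sim2*, *Cthrc1* and *Tox*. The matched windows had a median GC content of 58.0% and a median CpG ratio (observed over expected from the base content) of 0.777, against 61.3% and 0.769 for the windows of genes at 1 CPM or more in TM6 and 52.7% and 0.384 for all windows. A GC content of 50% or more with a CpG ratio of 0.6 or more, the usual mark of a CpG island, was met by 14 of the 21 genes (66.7%), by 77.3% of the genes expressed in TM6 and by 36.0% of all. The share of the silenced genes lay nearer to that of the genes expressed in TM6 than to that of all genes, a description with no test. The letters TATAAA, searched on both strands, were in a window of 3 genes (14.3%, against 8.14% of expressed genes and 15.7% of all): *Postn*, *Ppbp* and *Evx2*. CCAAT was in 10 genes (47.6%, against 43.8% and 41.1%) and GGGCGG in 13 (61.9%, against 71.6% and 38.2%).

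**Figure D3:**
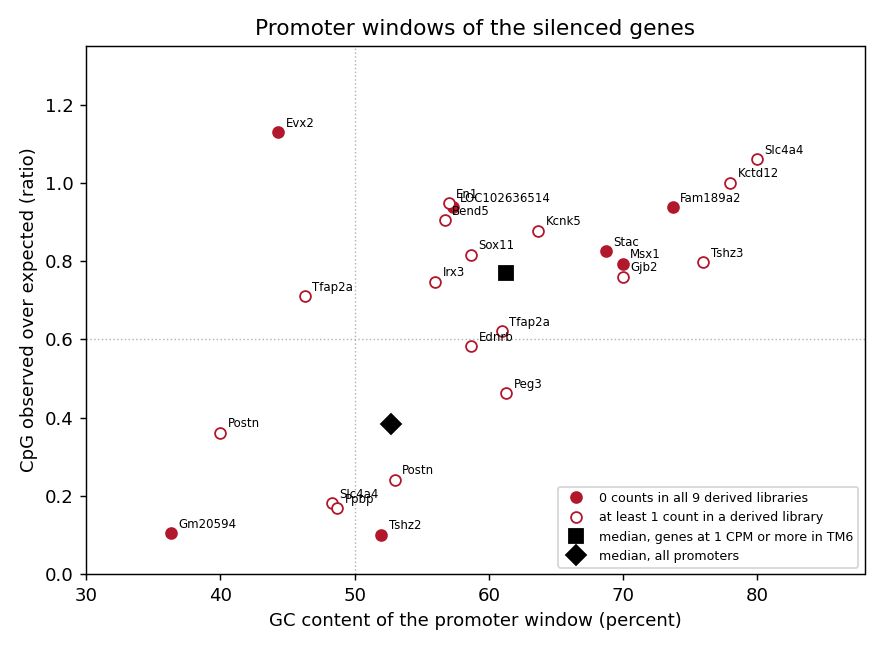
GC content (percent) and CpG observed over expected (ratio) of the 24 promoter windows of 21 silenced genes, with dotted lines at the limits of 50% and 0.6. Filled points are genes with 0 counts in all 9 derived libraries, open points have at least 1 count there, and black symbols are medians over the windows of genes expressed in TM6 and of all genes.

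The sequences upstream of the start site are shown for 6 of the 9 genes that had no count in any derived library, since they span CpG-dense and CpG-poor promoters. A count of 0 in such low-level genes gives only a lower bound on the fold, so that these genes are not shown to be silenced further than the others. Each line runs 5′ to 3′ toward the gene and ends at the last base before the start site of the promoter window, in GRCm38.p6, with CpG dinucleotides in capitals, and the line of LOC102636514 stops where *Hand2* begins. For *Tshz2* and *Stac* this start site lies upstream of the counted gene, which begins at base 169633646 and at base 111690216 of its chromosome.
Msx1 (chr5:37824586-37824835, minus strand): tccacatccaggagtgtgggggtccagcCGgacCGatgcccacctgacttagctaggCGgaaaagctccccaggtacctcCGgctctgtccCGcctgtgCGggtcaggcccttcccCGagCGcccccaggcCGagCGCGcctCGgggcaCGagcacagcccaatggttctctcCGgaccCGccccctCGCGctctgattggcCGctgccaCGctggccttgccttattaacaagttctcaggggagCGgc
Stac (chr9:111690349-111690598, minus strand): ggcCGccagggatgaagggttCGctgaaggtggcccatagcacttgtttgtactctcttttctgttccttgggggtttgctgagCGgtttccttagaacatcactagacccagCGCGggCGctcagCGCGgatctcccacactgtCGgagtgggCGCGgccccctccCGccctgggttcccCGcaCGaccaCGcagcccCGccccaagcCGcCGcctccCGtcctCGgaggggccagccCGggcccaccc
Fam189a2 (chr19:24031020-24031269, minus strand): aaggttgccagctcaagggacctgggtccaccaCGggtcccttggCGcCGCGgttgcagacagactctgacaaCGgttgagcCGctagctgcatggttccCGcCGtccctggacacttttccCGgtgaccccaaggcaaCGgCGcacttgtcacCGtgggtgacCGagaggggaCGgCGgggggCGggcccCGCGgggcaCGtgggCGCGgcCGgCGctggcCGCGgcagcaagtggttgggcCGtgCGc
LOC102636514 (chr8:57320860-57320982, minus strand): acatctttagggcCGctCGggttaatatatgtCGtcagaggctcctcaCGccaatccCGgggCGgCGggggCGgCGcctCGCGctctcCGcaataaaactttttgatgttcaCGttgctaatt
Evx2 (chr2:74659558-74659807, minus strand): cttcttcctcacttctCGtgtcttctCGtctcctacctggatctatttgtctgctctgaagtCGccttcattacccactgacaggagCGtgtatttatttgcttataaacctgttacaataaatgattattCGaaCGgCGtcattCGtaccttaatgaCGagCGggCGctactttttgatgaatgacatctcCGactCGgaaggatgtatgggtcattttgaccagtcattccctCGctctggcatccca
Tshz2 (chr2:169632259-169632508, plus strand): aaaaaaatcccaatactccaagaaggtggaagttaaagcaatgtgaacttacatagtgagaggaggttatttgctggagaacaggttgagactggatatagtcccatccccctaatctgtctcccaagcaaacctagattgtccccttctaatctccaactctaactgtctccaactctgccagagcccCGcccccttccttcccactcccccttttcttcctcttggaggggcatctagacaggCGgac
*Msx1*, *Stac* and *Fam189a2* had 20, 21 and 27 CpGs in these 250 bases, and the 123 bases between LOC102636514 and *Hand2* had 13. *Evx2* had 14 in a stretch of 45.6% GC, and *Tshz2*, also at 0 in the derived libraries, had 2. No relation between CpG content and remaining counts can be read from so few windows.

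To see whether silencing reached beyond the members, the nearest tested gene on either side of each was examined, 54 genes at gaps of 2.3 to 2105.3 kb (median 280.6 kb). Genes that had passed both CPM limits were left out before the nearest was chosen. Silenced genes close to a member, such as *Hand2* and *Hoxd13*, are therefore not among these neighbours. Each derived line was compared with TM6 by edgeR's quasi-likelihood test over 14026 genes, and calls needed an adjusted p under 0.01 with a log2 fold change beyond 0.5 in either direction. The members' own calls, 27 of 27 lower in each line, follow from the rule. Of all tested genes, 21.4% were called lower and 20.7% higher in rho0, 17.9% lower and 16.4% higher in PKO-1, and 19.4% lower and 21.9% higher in PKO-6. Of the 54 neighbours, 15 (27.8%) were called lower in rho0, 12 (22.2%) in PKO-1 and 16 (29.6%) in PKO-6, while 8 (14.8%), 5 (9.26%) and 6 (11.1%) were called higher. Their median log2 fold changes of -0.07, -0.14 and -0.14 lay close to the 0.02, 0.00 and 0.01 of all tested genes. Calls in the same direction in all 3 lines were made for 7 neighbours lower and 3 higher (13% and 5.56%, against 9.25% and 8.28% of all tested genes), and 24 neighbours were called in no line. Within each line most neighbours were not called (31, 37 and 32 of 54), and in each line the share called lower was above, and the share called higher below, that of all tested genes.

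The 12 neighbours at gaps of 100 kb or less included 4 of the 7 that were lower in all 3 lines, and 2 of the 12 were called in no line, against 22 of the 42 farther away. *Hoxd12*, 15.5 kb from *Evx2* and a factor of the distal limb, had 0.979, 1.05 and 0.858 CPM in the TM6 libraries and 0 in all 9 others. It fell at least 42.7-fold in rho0 and in PKO-1 and at least 47.6-fold in PKO-6 (edgeR adjusted p = 1.31e-05, 1.70e-05 and 1.00e-05). *5033428I22Rik*, 11.6 kb from LOC102636514, had 0.852, 0.682 and 0.592 CPM in TM6 and likewise 0 in the 9 others, at least 31.4-fold lower in rho0 and in PKO-1 and 35.0-fold lower in PKO-6 (edgeR adjusted p = 3.92e-05, 5.01e-05 and 2.99e-05). Both had missed the TM6 limit of the rule, and *Hoxd12* would also have been left out by its symbol.

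*Cxcl5*, a chemokine gene 6.9 kb from *Ppbp* in the same cluster, had 2.00 ± 0.307 CPM in TM6 (SD, n = 3) and fell by 5.99 ± 0.67 in rho0, 5.40 ± 0.63 in PKO-1 and 3.93 ± 0.51 in PKO-6 on the log2 scale (± standard error, edgeR adjusted p = 2.51e-06, 4.70e-06 and 1.08e-05). *Cxcl1*, on the other side of *Ppbp* at 121.2 kb, went from 4.59, 4.66 and 5.62 CPM in TM6 to 0.280, 0.437 and 0.383 in rho0. In PKO-1 it had 3.32, 2.47 and 3.49 CPM and in PKO-6 2.42, 1.27 and 3.64, so that the fall passed the test in rho0 and PKO-6 (log2 fold changes -3.81 and -1.10, edgeR adjusted p = 1.86e-07 and 0.00164) and not in PKO-1 (-0.68, edgeR adjusted p = 0.0298). *Apba1*, a synaptic adaptor 23.2 kb from *Fam189a2*, fell in all 3 lines from 0.504 CPM to 0.229, 0.0697 and 0.166 CPM. Its call in rho0, at a log2 fold change of -1.16 (edgeR adjusted p = 0.00949), was lost without any 1 of TM6 replicate 1, 2 or 3, or replicate 2 or 3 of rho0, PKO-1 or PKO-6, with edgeR adjusted p-values up to 0.0448. The call also failed under 5 of the processing alternatives (adjusted p up to 0.0707 with the PKO clones pooled), and without it *Apba1* is not among the neighbours lower in all 3 lines. *Cxcl1* stayed without a call in PKO-1 under 16 of 19 alternative settings, and those that gained it included leaving out PKO-6 replicate 2 or replicate 3. Its call in PKO-6 held under 18 of 19 and its call in rho0 under all 19.

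Among the neighbours left after genes past both limits were taken out, the one with the smallest gap was not lower. This says nothing of the silenced genes taken out, of which *Hand2* lay 123 bases from LOC102636514. *Hlcs*, the biotin ligase gene 2.3 kb from *Sim2*, was higher in all 3 lines, at 11.3 CPM in TM6 and 25.3, 22.4 and 26.4 in rho0, PKO-1 and PKO-6 (it was named after its values were seen). *Sim2* and *Hlcs* are read toward each other, so that this gap lies between their last exons and not between their start sites. *Car8*, 1151 kb from *Tox* and related to carbonic anhydrases, and *Elavl4*, a neuronal RNA-binding protein gene 1063 kb from *Bend5*, rose as well. *Car8* had 0.317 ± 0.108 CPM in TM6 (SD, n = 3) and 0.853 ± 0.192, 11.6 ± 0.712 and 6.53 ± 0.464 in rho0, PKO-1 and PKO-6, and *Elavl4* had 0.708 ± 0.232 against 6.54 ± 0.201, 2.38 ± 0.235 and 5.04 ± 0.602. *Nxpe4*, 508.6 kb from *Cadm1*, fell from 0.776 CPM to 0.122 in rho0 and 0.0537 in PKO-6 (log2 fold changes -2.71 and -3.86, edgeR adjusted p = 5.40e-05 and 5.64e-06), and its 0.360 CPM in PKO-1 did not pass the test (-1.08, edgeR adjusted p = 0.0142) unless PKO-1 replicate 2 was left out (edgeR adjusted p = 0.00455). The *Nxpe4* calls in rho0 and in PKO-6 each held under 18 of 19 alternative settings.

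**Figure D4:**
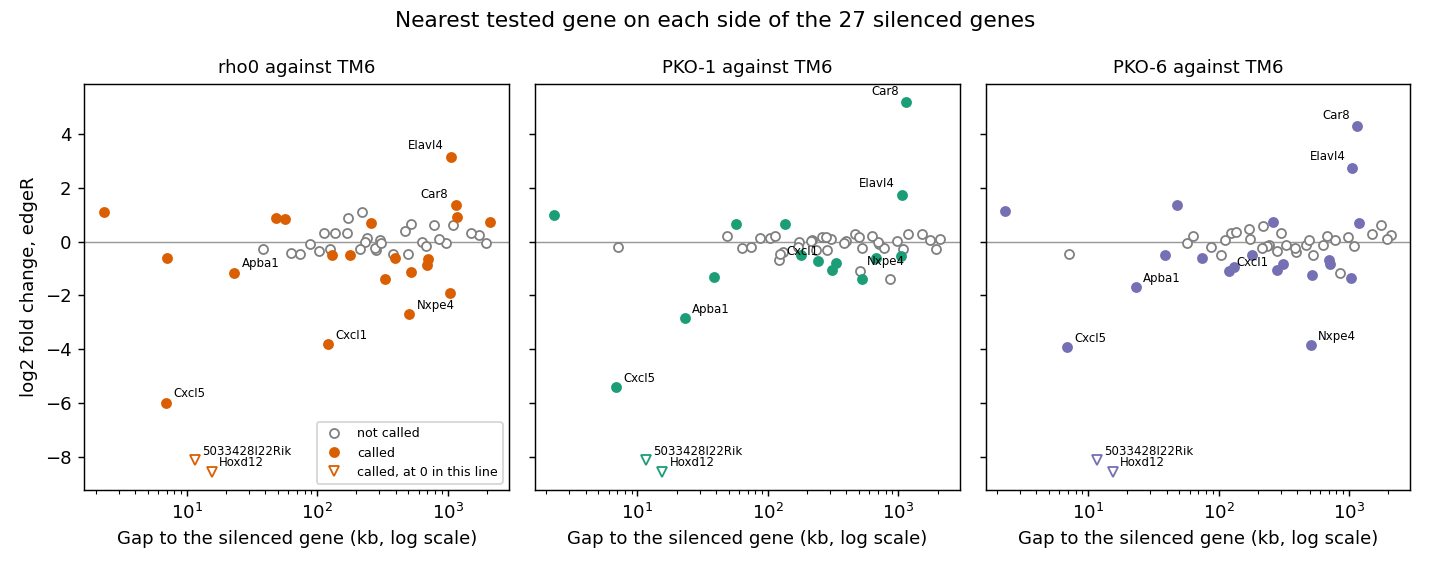
Log2 fold change (edgeR) of the 54 neighbours against TM6 in each derived line, by the gap to the silenced gene in kb on a log axis. Filled points were called, open circles were not, and triangles mark *Hoxd12* and *5033428I22Rik*, at 0 in all 9 derived libraries, whose position is set by the prior count of the fit and not by a measured ratio.

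Genes that share a symbol stem with a silenced gene, such as *Tshz1* with *Tshz2* and *Tshz3*, numbered 55 among the tested genes and belonged to 14 of the members. Of these relatives, 22 (40%) were called lower in rho0, 24 (43.6%) in PKO-1 and 24 (43.6%) in PKO-6, and 15 (27.3%), 13 (23.6%) and 16 (29.1%) were called higher. Both directions thus exceeded the shares of all tested genes given above, and 16 relatives were lower and 9 higher in all 3 lines. *Kctd12* alone brought 17 relatives, and a shared stem is a naming convention: *Peg3* shares with *Peg10*, *Peg12* and *Peg13* only the paternal expression that the name stands for.

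The stems differed in direction. All 3 relatives of *Irx3* (*Irx1*, *Irx2* and *Irx5*) were lower in all 3 lines, and so were 4 of the 8 of *Sox11*. Of the 7 relatives of *Slc4a4*, 4 were higher and none was lower in all 3. *Gjb5*, a connexin of skin and placenta, had 1.28 ± 0.0387 CPM in TM6 (SD, n = 3) and 0.0403, 0.272 and 0.106 CPM in rho0, PKO-1 and PKO-6 (log2 fold changes -5.04, -2.23 and -3.62, edgeR adjusted p = 9.38e-07, 1.08e-04 and 3.09e-06). *Msx2*, which acts beside *Msx1* in limb and skull, came close to the members, with 3.41, 2.83 and 3.00 CPM in TM6 and at most 0.179 CPM in a derived library (log2 fold changes -5.50 in rho0 and -4.43 in PKO-6, edgeR adjusted p = 4.70e-09 and 8.17e-09), and PKO-1 had 3 counts.

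*Sox2*, the pluripotency and neural progenitor factor, had 1.47, 1.75 and 1.41 CPM in TM6. It kept 0.400 ± 0.0487 CPM in rho0 and 0.557 ± 0.165 in PKO-1 (SD, n = 3 each) and had 1 count in the 3 PKO-6 libraries. *Sox5* and *Sox13*, SoxD factors of cartilage and other tissues, fell from 0.837 and 0.815 CPM to at most 0.132 and 0.0479 CPM in the mean of any derived line. *Bend4* had 14.0, 13.4 and 13.7 CPM in TM6, and fell to means of 2.02 in rho0, 1.51 in PKO-1 and 0.235 in PKO-6. *Kctd12b*, a relative of *Kctd12* on chromosome X, fell from 0.539 CPM to 0.0629 and 0.0914 CPM in rho0 and PKO-1, and PKO-6 had 1 count. *Slc4a10*, a neuronal bicarbonate transporter, rose instead, from 2 counts in TM6 to 61, 19 and 38 in rho0, PKO-1 and PKO-6 (edgeR adjusted p = 1.92e-05, 0.00388 and 2.57e-04). The call of *Slc4a10* in PKO-1 was lost without TM6 replicate 1, TM6 replicate 2 or PKO-1 replicate 3, at edgeR adjusted p-values of 0.0118 to 0.0254.

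**Figure D5:**
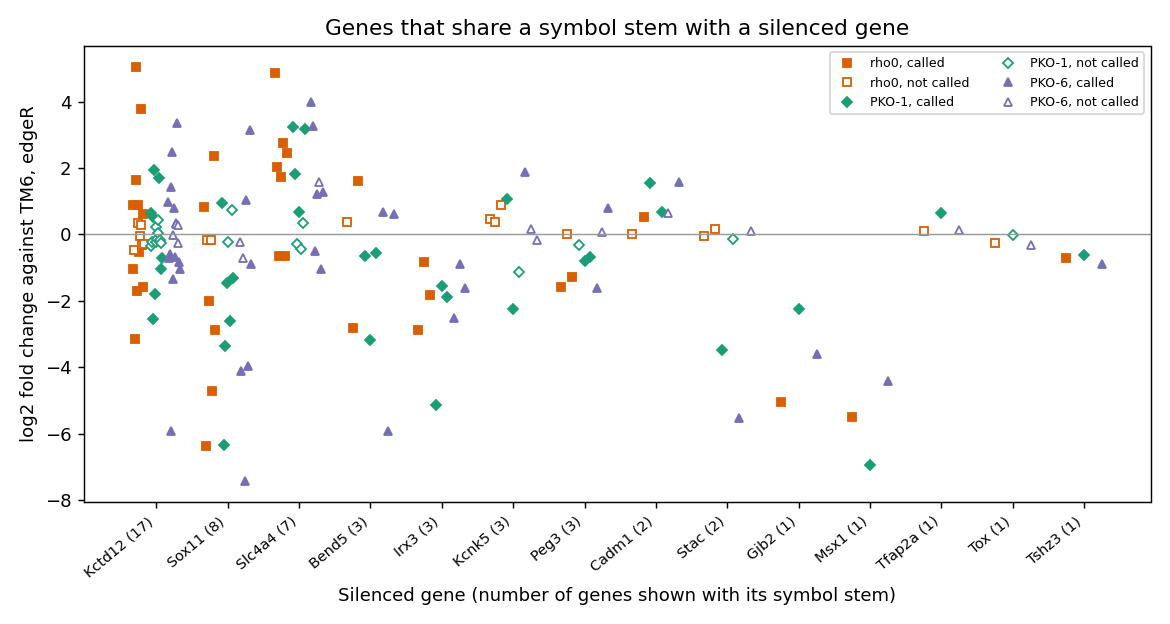
Log2 fold change (edgeR) against TM6 of tested genes that share a symbol stem with a silenced gene and are reported here, in columns by silenced gene with the number of relatives shown in brackets. Filled symbols were called and open symbols were not, and the relatives of *Irx3* are below 0 in all 3 lines.

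Wider families of the members were compared in the same fit, without the genes that passed both limits. The background for each list, here and below, is all tested genes. Among those, 21.4%, 17.9% and 19.4% were called lower in rho0, PKO-1 and PKO-6, and 20.7%, 16.4% and 21.9% higher. Of 38 other limb and mesenchyme patterning factors, 26 were lower and 1 higher in rho0, 18 lower and 9 higher in PKO-1, and 25 lower and 1 higher in PKO-6. The medians of their log2 fold changes were -0.97, -0.47 and -0.87. *Alx4*, a homeodomain factor of limb and skull, had 21.9 CPM in TM6, 0.526 in rho0, 0 in PKO-1 and 0.0331 in PKO-6, and *Foxd1*, a forkhead factor of kidney stroma, had 12.4, 0.356, 0.00814 and 0.134 CPM. *Barx1* and *Lhx8*, with 0.69 and 0.72 CPM in TM6, were at 0 in all 9 derived libraries.

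The 10 other tested chemokines of the list were lower in 9, 8 and 10 cases in rho0, PKO-1 and PKO-6, and none was higher. *Cxcl12* had 392.8 CPM in TM6 and 3.24, 0.0534 and 0.154 CPM in the derived lines, while *Ccl2* had 33.3 CPM in TM6 and 0.29, 1.74 and 4.87, and *Ccl7* had 15.4, 0.03, 0.10 and 0.12 CPM in the same order of lines. Matricellular proteins other than *Postn* and *Cthrc1* were lower in 12 of 17 cases in rho0 with none higher, and in 10 and 9 cases in PKO-1 and PKO-6 with 4 and 3 higher, and *Thbs2* went from 25.2 CPM to 0.0816, 0.159 and 0.216 CPM. Of 9 BMP antagonists, 5 were lower in rho0 and 4 in either PKO clone, with 2, 3 and 2 higher, and *Nog* fell from 3.24 CPM to 0.219, 0.0842 and 0.0716 CPM, while *Grem1* rose from 19.7 CPM to 46.0, 67.9 and 98.5 CPM (log2 fold changes 1.18, 1.78 and 2.25). The 7 other tested connexins gave 3 lower calls in every line, *Gjb5* among them, and no higher one.

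The smaller families held few genes. *Maf*, a bZIP transcription factor, fell from 9.96 CPM to 0.275, 0.584 and 0.954 CPM, with 2, 2 and 1 of 5 MAF factors lower and none higher. *Tshz1*, the only other tested gene of the TFAP2 and teashirt list, fell in all 3 lines, from 81.9 CPM to 51.2, 52.8 and 46.2 CPM. Of 3 endothelin genes tested beside *Ednrb*, none was lower, and *Ece1* and *Ece2*, which cut the endothelin precursors, were higher in rho0 (log2 fold changes 0.60 and 0.66) and were not called in the PKO clones, a difference between lines that was not tested.

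Adhesion, transport and channel families held calls in both directions. Of 15 other immunoglobulin and nectin adhesion genes, 6, 8 and 8 were higher and 2, 3 and 2 lower in rho0, PKO-1 and PKO-6, with *Nrcam*, a neuronal adhesion gene, at 0.36 CPM in TM6 and 5.27, 21.4 and 16.1 in the derived lines. *Amigo2* went the other way, with 134 counts in TM6 and 0 in the 9 others. The 10 other bicarbonate and choline transporters gave 5, 4 and 4 higher and 3, 2 and 3 lower calls, and the 15 other ion channels of the list gave 1, 5 and 5 higher and 7 lower in every line, with *Cacna1c*, the L-type calcium channel of muscle, at 23.7 CPM in TM6 and 0.281, 0.0880 and 0.0369 in the derived lines.

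Genes for silencing machinery were tested as a family of their own, beside the same background. Over all tested genes, 21.4%, 17.9% and 19.4% were lower and 20.7%, 16.4% and 21.9% higher in rho0, PKO-1 and PKO-6. In the Polycomb list of 32 genes, 22, 24 and 26 were not called in rho0, PKO-1 and PKO-6, with 5, 3 and 2 lower and 5, 5 and 4 higher, and the medians of their log2 fold changes were 0.15, 0.24 and 0.09. *Rbbp7*, a histone-binding subunit, fell in all 3 lines, by 0.98, 0.76 and 1.2 on the log2 scale. Among 15 genes of DNA methylation, 4, 5 and 3 were lower and 5, 2 and 2 higher. *Tdg*, a glycosylase that acts in demethylation, fell in all 3 lines from 86.7 CPM to 59.6, 47.5 and 54.7 CPM, and *Dnmt3l*, a cofactor of de novo methylation, was called higher in rho0 and PKO-6, at 0.42 and 0.64 CPM against 1 count in TM6. Of 15 genes of H3K9 methylation, 11, 12 and 13 were not called, with 3, 1 and 1 lower and 1, 2 and 1 higher in rho0, PKO-1 and PKO-6. *Suv39h1*, a histone H3K9 methyltransferase, fell from 106.4 CPM to 46.8, 51.0 and 44.6 CPM (log2 fold changes -1.23, -1.06 and -1.33, edgeR adjusted p = 5.94e-10, 3.33e-09 and 2.20e-10). Whether any of these moved the members was not tested.

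Marker sums of other cell types moved in different directions, and their part in the silencing was not tested. The 8 markers of neural crest and glia, a lineage in which *Ednrb*, *Tfap2a*, *Msx1* and *Sox11* are also known, summed to 9.05 to 9.22 CPM in TM6, 22.1 to 23.0 in rho0, 10.8 to 12.3 in PKO-1 and 29.5 to 31.5 in PKO-6, with *Foxd3* and *Dct* among those at 0 in TM6. The 8 cartilage markers summed to 30.2 to 32.3 CPM in TM6, 5.06 to 6.26 in rho0, 12.1 to 13.6 in PKO-1 and 16.9 to 18.2 in PKO-6, and 6, 6, 7 and 7 of them were below 1 CPM. *Sox9*, the cartilage factor, made up most of that sum, at 27.8 to 29.4 CPM in TM6 and 3.83 to 16.8 CPM in the derived libraries. Haematopoietic markers, relevant to *Ppbp* and *Tox*, summed to at most 12.2 CPM in any library, and *Adgre1* was at 0 in every line.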

How the data were processed

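RNA-seq was done on strand-specific libraries of 12 cultures, 3 each of TM6, rho0, PKO-1 and PKO-6. The authors merged technical duplicates, aligned reads to RefSeq transcripts of mm10 with Bowtie2 and quantified genes with RSEM 1.2.25, and the submitters' processing notes also list bcl2fastq, Bowtie and DESeq2 1.18.1. The deposited gene tables hold RSEM expected counts and TPM per library. Expected counts, of which 12.5% have decimals, were rounded for tests, and CPM was computed without *Rn45s*, which took 12.2 to 19.6% of each library. Library totals were 47164860 to 67991378, and intervals on counts (exact Poisson for sums, conditional exact binomial for ratios, 95%) cover counting error only. All columns were matched to samples by name.

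The members, gene lists and tests were chosen with earlier results of these data known. In R 4.3.3, edgeR 4.0.16 (TMM, filterByExpr with a minimum count of 10, quasi-likelihood F-test over all 12 libraries, Benjamini-Hochberg adjustment over all tested genes, standard errors from the fold change and F) compared each derived line with TM6, and PKO-1 with PKO-6. Calls needed an adjusted p under 0.01 with a log2 fold change beyond 0.5 in either direction. The test was tried on simulated data. DESeq2 1.42.0, other size factors, no filter, pooled clones, a replicate block and other limits were alternatives. Members were named by role, and 1 member and some genes of the lists are not reported here. Of the called neighbours, and of the called relatives, the 8 with the largest absolute mean log2 fold change over the 3 lines were named, and up to 4 called genes per list likewise. Promoters came from RefSeq GRCm38.p6, and blastn 2.17.0+ compared transcripts of GENCODE M21.

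Same-numbered libraries of different lines had correlations of -0.608 to 0.572 in their deviations from the line means, and 5 of 12 libraries lay closest to their own number, so the numbers do not pair the samples.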

Additional observations from a re-analysis of the deposited data

Results flagged for a closer look

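The clones PKO-1 and PKO-6 differed in 7 of the named neighbours and relatives of the silenced genes, by edgeR's quasi-likelihood test of one clone against the other. *Car8* was higher in PKO-1 than in PKO-6 (log2 difference 0.89, edgeR adjusted p = 5.2e-05), and *Elavl4* was lower (-1.01, edgeR adjusted p = 9.4e-05). *Nxpe4* and *Bend4* were higher in PKO-1, by 2.77 and 2.73 on the log2 scale (edgeR adjusted p = 0.00045 and 4.4e-09). *Sox2* and *Kctd12b*, with 1 count each in the PKO-6 libraries and 75 and 12 in PKO-1, differed at edgeR adjusted p = 7.4e-07 and 0.0072. *Msx2*, with 3 counts in the PKO-1 libraries and 22 in those of PKO-6, differed the other way (edgeR adjusted p = 0.0032).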

How the results depend on the processing

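The number of silenced genes followed the TM6 limit, with 54 at 0.5 CPM or more and 14 at 2 CPM or more, and the derived-line limit, with 20 genes at a limit of 0.05 CPM and 40 at 0.2 CPM. It was 23 with *Rn45s* kept in the library total, which lost *Cthrc1*, *Evx2*, LOC102636514, *Msx1* and *Tox* and added *Atp8b1*. Leaving out 1 library at a time gave 27 to 28. Requiring an absolute log2 fold change above 1 left 9, 7 and 9 neighbours lower and 3 and 2 higher in rho0 and PKO-1, and 7 relatives higher in PKO-1. Of the 14 tested genes that start within 100 kb of a member, a smaller set, 5, 9 and 6 were lower and 4, 1 and 4 higher in rho0, PKO-1 and PKO-6. The shares lower were above those of the 54 neighbours (27.8%, 22.2% and 29.6%) and of all tested genes (21.4%, 17.9% and 19.4%). The shares higher were above those of the neighbours (14.8%, 9.26% and 11.1%) in rho0 and PKO-6 and below in PKO-1. With both PKO clones pooled, 5 neighbours were higher in rho0, and 10 neighbours were lower and 10 relatives higher in PKO. Counts under the stricter limit on the fold change are smaller by construction, and the cause of the other differences was not tested. Leaving out 1 library gave 13 to 17, 11 to 15 and 15 to 18 neighbours lower and 8 to 12, 5 to 5 and 6 to 7 higher in rho0, PKO-1 and PKO-6, and 22 to 23, 23 to 24 and 23 to 24 relatives lower and 14 to 15, 11 to 13 and 16 to 17 higher.

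With the replicate block, 14, 12 and 16 neighbours were lower and 8, 5 and 6 higher, and 22, 24 and 24 relatives were lower and 15, 13 and 16 higher. Of the values for named genes under the alternatives, 881 kept their direction and their side of the threshold, 25 lost the call, 4 gained it and none reversed. Depth limits each silenced gene, since a count of 0 in a library allows up to 0.0537 to 0.0732 CPM.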
